A study of Mus musculus with 6 samples.

Results

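Liver RNA was examined here for 38 genes of sinusoidal and vascular endothelial cells, taken by gene name from a count table of 15454 genes. Every one of the 38 was present and had enough counts to be tested, among 12411 genes tested in all. They fell into 9 sinusoidal scavenger genes, 23 pan-endothelial genes and 6 angiocrine factors, which are the signals that endothelial cells send to neighbouring cells. The livers came from male C57BL/6 mice of 8 to 10 weeks in which warm ischemia and reperfusion (I/R) had been induced in 75% of the liver. The I/R group (n = 3, called vehicle livers) had received a vehicle solution, and the I/R+Rk2 group (n = 3, called Rk2 livers) had received ginsenoside Rk2, a triterpenoid saponin of ginseng, on the same schedule, 2 days ahead of the operation and again as blood flow returned. According to the study's methods the agent was injected into the peritoneum, and the inflow of the left and middle lobes was clamped. The study gave Rk2 at a low and a high dose and describes the sequenced treated livers as those of the high-dose group. The comparison asked which transcripts of the injured liver differed when Rk2 had been given. No sham-operated liver was analysed here, so a level can be set against the vehicle group but not against an uninjured liver. RNA was taken from whole liver tissue, so fewer endothelial cells and less RNA per endothelial cell cannot be told apart.

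Liver sinusoids are lined by a fenestrated endothelium that lacks an organised basement membrane and clears waste from the blood through scavenger receptors such as the stabilins. Like the endothelium of larger vessels it depends on vascular endothelial growth factor (VEGF) and angiopoietin receptors and is joined by VE-cadherin contacts. It also instructs its neighbours: Wnt ligands and R-spondin 3 maintain the zonation of hepatocytes, and BMP2 and BMP6 drive hepcidin, the hormone that limits iron uptake. Warm ischemia and reperfusion injures this lining early and turns on adhesion molecules that capture leukocytes.

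The 38 genes did not move together. With Rk2, 8 members were higher and 12 were lower at an adjusted p below 0.05 by edgeR's quasi-likelihood test with Benjamini-Hochberg adjustment over all genes tested, and 18 did not pass. Over all 12411 genes the same rule called 20.3% higher and 23.7% lower. When a fold change above 2 was also asked for, the limit that the study set for these livers, 2 members were higher (Ptprb and Wnt2) and 6 were lower (Flt1, Cdh5, Calcrl, Nos3, Angpt2 and Rspo3), beside 3.17% and 11.4% of all genes. The 3 livers of each group did not overlap for 10 members that were higher and 14 that were lower, while 27.1% and 30.3% of all genes were separated in that way. The median log2 fold change (I/R+Rk2 over I/R) of the 38 members was 0.12, against -0.01 for all genes tested. The summed level of the members overlapped between the groups, at 518 to 559 counts per 1000000 (CPM, of a library size scaled by the trimmed mean of M values) in vehicle livers and 493 to 580 CPM in Rk2 livers. The plot of the fold changes shows this spread within each role.

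**Figure D1:**
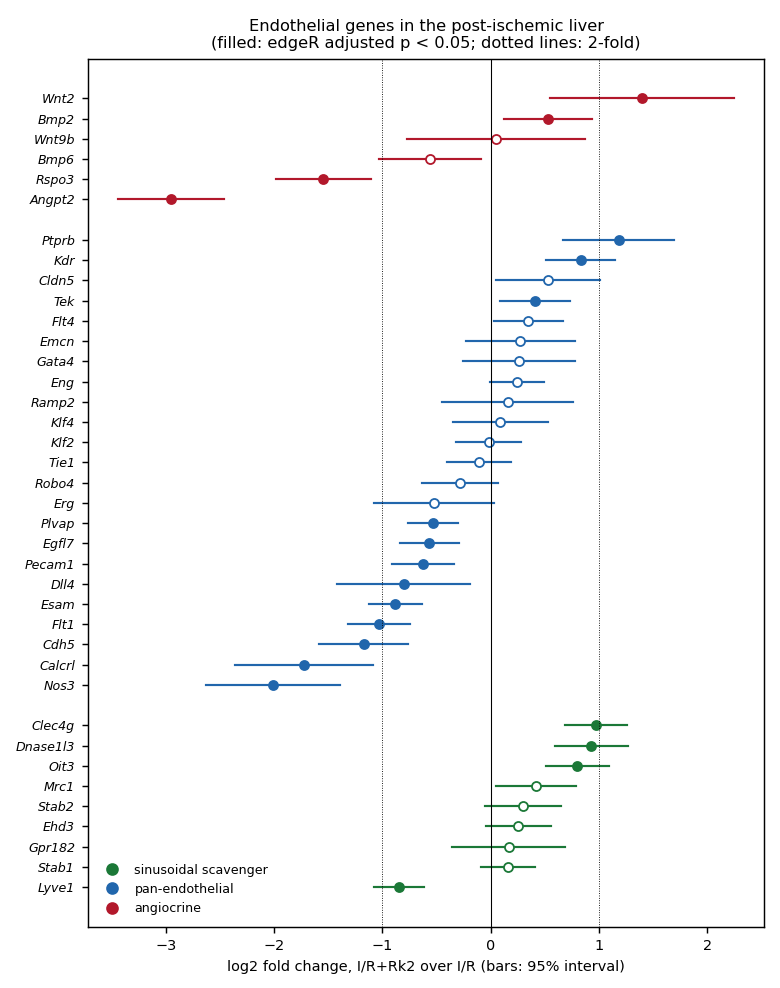
Log2 fold change of each of the 38 members (I/R+Rk2 over I/R, n = 3 livers each) on the x axis, with genes in rows by role; points are edgeR estimates, bars their 95% intervals, filled points have an adjusted p below 0.05 and dotted lines mark a 2-fold change. Points run from Angpt2 at -2.95 to Wnt2 at 1.40, and each of the 3 roles holds filled points on both sides of 0.

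The upstream sequence of 4 members is shown because they carry the contrast within the group: Kdr and Flt1 are paired VEGF receptors that moved apart, Clec4g is a scavenger lectin that rose, and Calcrl is a peptide receptor that fell. They were chosen after their values were seen. Each window runs from 250 bases before to 50 bases after the RefSeq start of the gene (build GRCm38.p6), read 5′ to 3′ on the gene's own strand, which is the minus strand for all 4. The windows lie at chr5:75978406-75978705 for Kdr, chr5:147725962-147726261 for Flt1, chr8:3720602-3720901 for Clec4g and chr2:84425217-84425516 for Calcrl. Capitals mark matches, on either strand, to the ETS core AGGAAG, the GC box GGGCGG, the TATA box TATAAA and the cyclic AMP response element TGACGTCA.
Kdr: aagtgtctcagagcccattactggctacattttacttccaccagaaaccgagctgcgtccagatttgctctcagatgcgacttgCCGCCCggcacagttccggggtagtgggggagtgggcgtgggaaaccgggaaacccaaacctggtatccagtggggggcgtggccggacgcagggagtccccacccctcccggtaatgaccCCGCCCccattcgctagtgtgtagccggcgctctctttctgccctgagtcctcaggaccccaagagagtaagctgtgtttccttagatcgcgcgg
Flt1: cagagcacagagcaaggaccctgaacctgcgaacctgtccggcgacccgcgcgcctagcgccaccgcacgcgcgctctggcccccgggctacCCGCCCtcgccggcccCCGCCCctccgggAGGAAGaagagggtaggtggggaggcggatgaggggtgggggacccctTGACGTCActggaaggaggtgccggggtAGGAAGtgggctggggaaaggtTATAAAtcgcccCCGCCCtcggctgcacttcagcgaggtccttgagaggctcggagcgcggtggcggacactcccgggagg
Clec4g: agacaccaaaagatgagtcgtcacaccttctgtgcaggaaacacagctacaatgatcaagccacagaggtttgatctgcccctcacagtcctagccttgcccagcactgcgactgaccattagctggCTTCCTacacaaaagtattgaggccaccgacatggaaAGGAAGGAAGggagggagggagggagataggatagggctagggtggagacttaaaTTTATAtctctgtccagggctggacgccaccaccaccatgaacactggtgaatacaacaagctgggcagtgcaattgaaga
Calcrl: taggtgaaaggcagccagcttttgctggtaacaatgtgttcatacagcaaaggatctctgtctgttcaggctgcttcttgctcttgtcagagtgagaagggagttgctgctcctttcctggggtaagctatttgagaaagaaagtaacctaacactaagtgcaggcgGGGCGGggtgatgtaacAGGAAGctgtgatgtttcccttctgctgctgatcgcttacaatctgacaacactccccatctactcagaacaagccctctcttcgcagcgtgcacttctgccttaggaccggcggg
The Kdr window held 2 GC boxes and none of the other motifs. The Flt1 window held 2 ETS cores, 3 GC boxes, a TATA box whose first base was at -31 from the start, and the response element at -81. In the Clec4g window there were 3 ETS cores, of which 2 overlap each other, and a TATA box on the opposite strand. Calcrl had a single ETS core at -66 and a single GC box at -83. A window was at hand for 23 of the 38 members, with 27 windows in all. A member was counted if any of its windows matched: 13 held an ETS core, 15 a GC box, 3 a TATA box and 1, Flt1, the response element. Of all 32851 windows of this length, 35.4% held the ETS core, 35.7% the GC box, 13.6% the TATA box and 1.79% the response element. Those shares are of single windows, so they are not in the same unit as the counts of members. These matches describe the letters only.

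The 6 libraries held 16809613 to 35618074 counts, and their scaling factors ran from 0.914 to 1.14, with those of the Rk2 livers all below those of the vehicle livers. Markers of other cell types of the liver also differed between the groups, where 20.3% of all genes tested were called higher and 23.7% lower. All 10 monocyte markers were lower with Rk2 (summed level 372 to 447 CPM in vehicle and 53.7 to 75.8 CPM in Rk2 livers), as were 9 of 10 neutrophil markers (567 to 681 and 104 to 240 CPM), and none of them was at 0 in all Rk2 livers. Of 13 Kupffer cell markers 4 were lower and none was higher (134 to 199 and 89.1 to 108 CPM), with a median log2 fold change of -0.67. The 4 lower were Cd68 (edgeR log2 fold change -2.43), Csf1r (-1.50), Cd163 (-1.38) and Cd5l (-0.97). The other 9 did not pass, with log2 fold changes from -1.58 to -0.0038. Clec4f, a Kupffer cell marker that did not pass, was at 16.9 ± 1.7 and 15.4 ± 2.2 CPM (SD, n = 3). Of 10 hepatocyte markers 4 were higher, 1 was lower and 5 did not pass. Their summed level was 64603 to 76362 CPM in vehicle and 96295 to 121755 CPM in Rk2 livers. Most of that sum was Alb, at 44262 to 52469 CPM in vehicle and 68876 to 88052 CPM in Rk2 livers. Several members are shared with these cells, since Mrc1, Stab1 and Lyve1 also mark macrophages and Pecam1, Eng and Flt1 are also made by monocytes. The part of these cells in the results was not tested.

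Among the sinusoidal scavenger genes, 3 of 9 were higher with Rk2 (Clec4g, Dnase1l3 and Oit3), 1 was lower (Lyve1) and 5 did not pass, beside 20.3% higher and 23.7% lower over all genes. The median log2 fold change of the 9 was 0.30. Clec4g, which encodes the lectin LSECtin, read 17.0, 20.6 and 21.3 CPM in vehicle livers and 37.5, 42.8 and 35.6 CPM in Rk2 livers. The highest vehicle liver lay well below the lowest treated liver. Its log2 fold change was 0.97 (SE 0.12, edgeR adjusted p = 0.00134), and per length of transcript it was the most abundant of the 38 members, at 16.4 ± 0.69 FPKM (fragments per kilobase per 1000000 fragments) in vehicle and 27.6 ± 2.9 FPKM in Rk2 livers.

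Dnase1l3, a secreted nuclease that degrades chromatin in the circulation, read 17.7, 17.1 and 21.8 CPM in vehicle livers and 38.8, 38.7 and 30.3 CPM in Rk2 livers (edgeR log2 fold change 0.93, SE 0.14, adjusted p = 0.0028). Oit3, a secreted protein of sinusoidal cells, read 7.87, 6.95 and 7.93 CPM in vehicle livers and 12.0, 14.4 and 13.1 CPM in Rk2 livers (edgeR log2 fold change 0.80, SE 0.12, adjusted p = 0.00286). For both genes every treated liver was above every vehicle liver. Lyve1, a hyaluronan receptor of sinusoidal and lymphatic endothelium, went the other way. It read 30.7, 32.5 and 28.7 CPM in vehicle livers and 17.9, 17.3 and 15.8 CPM in Rk2 livers, again without overlap (edgeR log2 fold change -0.84, SE 0.098, adjusted p = 0.00107). On the FPKM scale with a pseudocount of 1 the rise of Oit3 was 0.43 and did not pass without a filter on low values (limma adjusted p = 0.054).

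The stabilins and the other sinusoidal genes did not pass. Stab1 read 24.3, 21.3 and 22.5 CPM in vehicle livers and 24.4, 27.9 and 23.8 CPM in Rk2 livers (edgeR log2 fold change 0.16, 95% interval -0.09 to 0.41, adjusted p = 0.252). Stab2 read 23.7, 20.2 and 23.2 CPM in vehicle livers and 28.2, 31.9 and 22.1 CPM in Rk2 livers (edgeR log2 fold change 0.30, 95% interval -0.05 to 0.65, adjusted p = 0.145). Both are giant scavenger receptors that take up modified lipoproteins, and for both the groups overlapped. In FPKM the mean of Stab2 lay on the other side, at 6.78 ± 2.0 in vehicle and 5.23 ± 0.83 in Rk2 livers, and without I/R+Rk2 replicate 3 its edgeR log2 fold change was 0.43 (adjusted p = 0.0345). Ehd3, an endocytic recycling protein, read 37.2, 38.6 and 38.1 CPM in vehicle livers and 38.3, 53.3 and 44.3 CPM in Rk2 livers. Its I/R+Rk2 replicate 1 lay between the vehicle livers (edgeR log2 fold change 0.26, adjusted p = 0.139), and without that liver the difference was 0.36 (adjusted p = 0.0337).

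Mrc1, the mannose receptor, had means of 13.6 ± 2.2 CPM in vehicle and 18.1 ± 2.2 CPM in Rk2 livers and did not overlap, with a log2 fold change of 0.42 and an edgeR adjusted p of 0.0637 that passed without I/R replicate 3 (0.0494). Mrc1 passed as higher in 4 of 17 alternative settings. Gpr182, an atypical chemokine receptor, had means of 11.0 ± 2.7 and 12.3 ± 2.8 CPM (edgeR log2 fold change 0.16, adjusted p = 0.575). Stab1, Stab2 and Gpr182 share 112, 141 and 74 exonic bases with Nt5dc2, Gm16268 and Zbtb39 on the opposite strand. Some members past the threshold share more: Rspo3 shares 404 with Gm48159, Dll4 shares 214 with Gm14207 and Clec4g shares 146 with Gm16553, all on the opposite strand. When the trend of the counts with transcript length was removed from each library, the number of sinusoidal genes past the threshold went from 4 to 7, as Stab1 (0.47, adjusted p = 0.0081), Stab2 (0.61, 0.0142) and Mrc1 (0.60, 0.0181) then passed as higher.

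The VEGF receptors Kdr and Flt1 moved in opposite directions. Kdr (VEGFR2), the main signalling receptor for VEGF-A, read 13.9, 11.6 and 12.0 CPM in vehicle livers and 20.01, 25.6 and 21.001 CPM in Rk2 livers. Each treated liver was above each vehicle liver, with a log2 fold change of 0.83 (SE 0.14, edgeR adjusted p = 0.00332). Flt1 (VEGFR1), which binds VEGF-A tightly but signals weakly and has a soluble decoy form, read 20.8, 17.6 and 21.4 CPM in vehicle livers and 10.3, 9.21 and 9.76 CPM in Rk2 livers. The treated livers were all lower, by a log2 fold change of -1.03 (SE 0.12, edgeR adjusted p = 0.00108). Flt4 (VEGFR3), the receptor for VEGF-C, read 13.6, 13.3 and 14.8 CPM in vehicle livers and 15.97, 20.8 and 16.1 CPM in Rk2 livers, which did not overlap but did not pass (edgeR log2 fold change 0.35, adjusted p = 0.0755). Flt4 passed as higher in 2 of 17 alternative settings.

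Compared per length within each liver, the ratio of Flt1 to Kdr was 1.32, 1.34 and 1.58 in vehicle livers and 0.448, 0.311 and 0.404 in Rk2 livers. Flt1 thus exceeded Kdr in every vehicle liver and lay below it in every treated liver. The ratios are a description of values already given, with pairs chosen after those were seen. With FPKM and a pseudocount of 1 the rise of Kdr was 0.49 and did not pass without a filter on low values (limma adjusted p = 0.0537). The reads of the soluble and full-length forms of Flt1 were not counted apart.

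Of 10 tested ligands and co-receptors of the VEGF, angiopoietin and adrenomedullin receptors and of endoglin, 6 were lower, 1 was higher and 3 did not pass (median log2 fold change -0.61). The shares over all genes were 23.7% lower and 20.3% higher. Nrp1, a VEGF co-receptor, went from 119 ± 9.2 to 39.3 ± 11.6 CPM (edgeR log2 fold change -1.60, adjusted p = 0.0013), and Pgf, a ligand of Flt1 but not of Kdr, from 1.07 ± 0.11 to 0.104 ± 0.13 CPM (-3.24, adjusted p = 0.00756). Vegfb, another Flt1 ligand, was the member of the list that rose, from 8.10 ± 0.40 to 12.3 ± 1.0 CPM (0.60, adjusted p = 0.00642). Vegfa itself read 46.5, 51.2 and 51.1 CPM in vehicle livers and 49.6, 50.8 and 46.4 CPM in Rk2 livers. Those groups overlapped (edgeR log2 fold change -0.02, adjusted p = 0.875). Gdf2, which encodes BMP9, a ligand that binds endoglin, fell from 8.28 ± 1.4 to 4.41 ± 0.66 CPM (-0.90, adjusted p = 0.00776).

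Angpt2 showed the largest change of the 38 members. It encodes angiopoietin-2, which destabilises vessels by opposing angiopoietin-1 at the Tie2 receptor, and it is held in endothelial storage granules. The gene lies at chr8:18690263-18741562 on the minus strand (GENCODE M21, build GRCm38). It read 13.8, 9.09 and 10.9 CPM in vehicle livers and 1.597, 1.303 and 1.47 CPM in Rk2 livers. The treated livers were tightly grouped and far below the vehicle livers, with a 7.73-fold lower fitted level (edgeR log2 fold change -2.95, SE 0.21, adjusted p = 0.00024). Its counts were 233 to 273 per vehicle library and 24 to 44 per treated library. On the FPKM scale with a pseudocount of 1, which understates changes of weakly expressed genes, the difference was -1.59.

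The receptor of Angpt2 and its phosphatase went in the opposite direction in counts. Tek, which encodes Tie2, read 6.05, 5.89 and 5.54 CPM in vehicle livers and 8.36, 6.72 and 8.17 CPM in Rk2 livers. The groups did not overlap, and the log2 fold change was 0.41 (SE 0.14, edgeR adjusted p = 0.048). The call was kept in 4 of 17 alternative settings: it was lost without any single liver other than I/R+Rk2 replicate 2, with adjusted p-values up to 0.143, and the difference was 0.077 on log2(FPKM + 1). Ptprb, which encodes VE-PTP, a phosphatase that restrains Tie2 and VE-cadherin, read 16.2, 11.0 and 12.7 CPM in vehicle livers and 22.1, 36.6 and 31.7 CPM in Rk2 livers. Every treated liver was above the vehicle livers, with a log2 fold change of 1.18 (SE 0.22, edgeR adjusted p = 0.00532). In the deposited FPKM table this difference was nearly absent, at 2.23 ± 0.63 in vehicle and 2.47 ± 0.32 in Rk2 livers (0.12 with a pseudocount of 1, limma adjusted p = 0.615), and the cause was not tested.

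Tie1, an orphan partner of Tie2, had means of 12.8 ± 0.91 and 11.8 ± 1.4 CPM (edgeR log2 fold change -0.11, adjusted p = 0.515). The ratio of Angpt2 to Tek in FPKM was 1.93 to 3.0 in vehicle livers and 0.236 to 0.248 in Rk2 livers, so the ligand exceeded its receptor in each vehicle liver and was below it in each treated liver. Angpt1 was not tested, since it had at most 0.246 CPM in any liver.

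**Figure D2:**
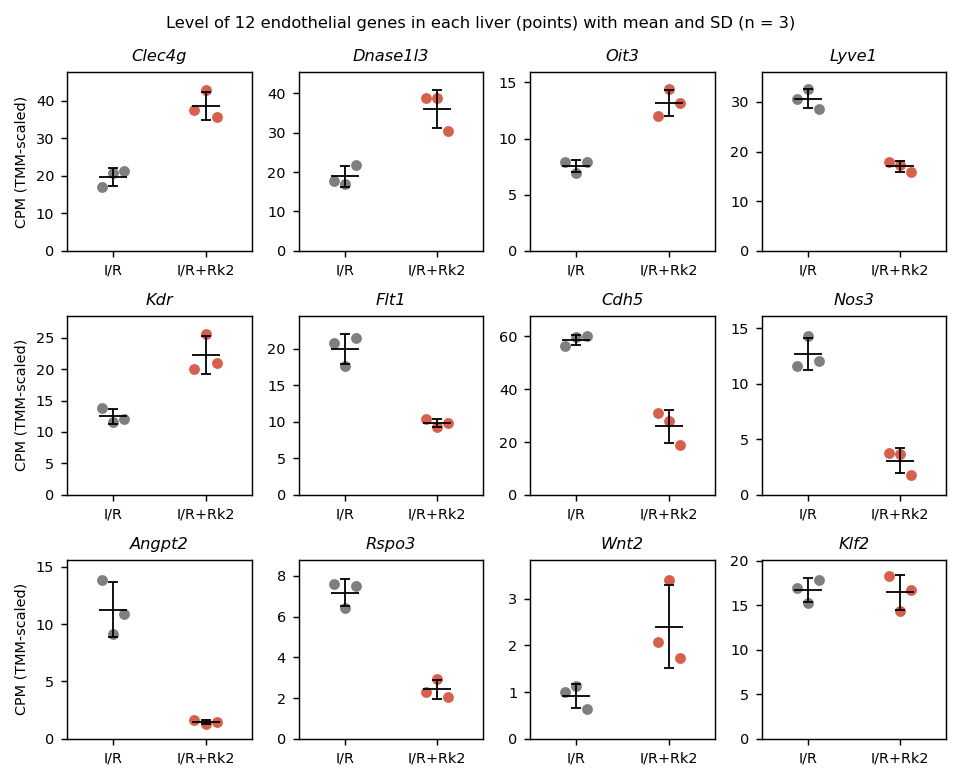
Level of 12 members in each liver in TMM-scaled CPM (y axis of each panel, starting at 0), with vehicle (I/R) livers in grey and Rk2 (I/R+Rk2) livers in red (x axis); points are livers, and the lines are the mean and SD (n = 3). The groups are apart for 11 of the genes, with Clec4g, Dnase1l3, Oit3, Kdr and Wnt2 higher and Lyve1, Flt1, Cdh5, Nos3, Angpt2 and Rspo3 lower in Rk2 livers, whereas those of Klf2 overlap.

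Cdh5, Pecam1 and Esam, which encode proteins of cell-cell contacts, fell. Cdh5, which encodes VE-cadherin of adherens junctions, read 56.4, 59.6 and 60.0 CPM in vehicle livers and 30.9, 28.0 and 18.8 CPM in Rk2 livers (edgeR log2 fold change -1.17, SE 0.18, adjusted p = 0.00249). Pecam1 (CD31), an adhesion molecule of endothelial contacts and leukocytes, read 29.7, 24.4 and 25.4 CPM in vehicle livers and 17.0, 19.0 and 15.4 CPM in Rk2 livers (edgeR log2 fold change -0.63, SE 0.12, adjusted p = 0.00665). Esam, an immunoglobulin-like molecule of tight junctions, read 12.9, 13.2 and 13.2 CPM in vehicle livers and 7.397, 6.87 and 7.06 CPM in Rk2 livers (edgeR log2 fold change -0.88, SE 0.10, adjusted p = 0.00112). For each of these genes the groups were separate, and for Esam the livers of a group differed little. The treated livers were more scattered for Cdh5, where I/R+Rk2 replicate 3 was lowest. Cldn5, the main claudin of endothelial tight junctions, had means of 4.37 ± 0.67 and 6.26 ± 1.3 CPM (edgeR log2 fold change 0.53, adjusted p = 0.0735), and passed as higher without I/R+Rk2 replicate 3 (0.68, adjusted p = 0.0282).

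The ratio of Cdh5 to Ptprb in FPKM was 5.19 to 8.66 in vehicle livers and 1.601 to 3.33 in Rk2 livers. Plvap, which forms the diaphragms of fenestrae and caveolae, read 27.9, 28.0 and 31.0 CPM in vehicle livers and 20.6, 18.5 and 21.2 CPM in Rk2 livers. The gap between the groups exceeded the spread in either, with a log2 fold change of -0.53 (SE 0.099, edgeR adjusted p = 0.00539). Egfl7, a secreted matrix protein of vessels, read 12.4, 11.4 and 12.8 CPM in vehicle livers and 8.41, 8.70 and 7.49 CPM in Rk2 livers (edgeR log2 fold change -0.57, SE 0.12, adjusted p = 0.00801). It shares exon positions with Agpat2 on the opposite strand, which rose from 111 ± 14.6 to 253 ± 26.9 CPM (log2 fold change 1.19), and whether the counting used strand is not given in the sources used here.

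Eng, the endoglin co-receptor of BMP9, read 35.1, 30.4 and 28.6 CPM in vehicle livers and 34.7, 39.4 and 37.5 CPM in Rk2 livers. The groups overlapped (edgeR log2 fold change 0.25, adjusted p = 0.0991), and 61 exonic bases of Eng are shared with Fpgs on the opposite strand, which rose (0.78, adjusted p = 0.00297). Eng passed in 1 of 17 alternative settings. Emcn, a sialomucin of capillaries and veins, had means of 2.87 ± 0.55 and 3.45 ± 0.46 CPM (0.27, adjusted p = 0.335), and Robo4, an endothelial guidance receptor, 6.37 ± 0.34 and 5.21 ± 0.70 CPM (-0.28, adjusted p = 0.165).

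Nos3 and Calcrl, which act on vascular tone, fell. Nos3, the endothelial nitric oxide synthase (chr5:24364810-24384474, plus strand), read 11.6, 14.3 and 12.1 CPM in vehicle livers and 3.78, 3.64 and 1.78 CPM in Rk2 livers. Its vehicle livers were all several times higher, with a 4.04-fold difference in the fitted level (edgeR log2 fold change -2.01, SE 0.26, adjusted p = 0.00153). Atg9b and Gm15587, on the opposite strand, share exon positions with Nos3 (1334 bases summed over both, of 4132 exonic bases of Nos3). Atg9b had few counts (17 to 30 per I/R library and 0 to 9 per I/R+Rk2 library). Calcrl, the receptor that binds adrenomedullin when paired with a RAMP protein, read 6.88, 3.82 and 6.26 CPM in vehicle livers and 1.56, 1.57 and 2.03 CPM in Rk2 livers. These groups were also apart (edgeR log2 fold change -1.73, SE 0.27, adjusted p = 0.00296).

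Ramp2, the RAMP partner that makes Calcrl an adrenomedullin receptor, had means of 4.27 ± 1.3 and 4.71 ± 0.91 CPM and did not pass (edgeR log2 fold change 0.16, adjusted p = 0.648), and it shares exon positions with Vps25 on the same strand. Adrenomedullin itself (Adm) fell from 9.70 ± 1.8 to 6.20 ± 0.69 CPM (-0.65, adjusted p = 0.0209). In FPKM with a pseudocount of 1 the differences of Nos3 and Calcrl were -1.29 and -0.77.

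The transcription factors Klf2, Klf4, Gata4 and Erg did not pass. Klf2, a factor that laminar flow induces and that drives Nos3, read 17.0, 15.2 and 17.9 CPM in vehicle livers and 18.3, 14.4 and 16.8 CPM in Rk2 livers. The groups interleaved, with a log2 fold change of -0.02 and a 95% interval of -0.32 to 0.28 (edgeR adjusted p = 0.915). For Klf4, its relative, the means were 4.86 ± 0.98 and 5.16 ± 0.25 CPM (0.09, 95% interval -0.35 to 0.53, adjusted p = 0.727). Gata4, which specifies the sinusoidal state but is also made in other liver cells, had means of 12.1 ± 1.8 and 14.4 ± 4.1 CPM (0.26, adjusted p = 0.372). Erg, the ETS factor that maintains endothelial identity, had means of 2.89 ± 0.47 and 2.02 ± 0.37 CPM without overlap (-0.52, 95% interval -1.07 to 0.03, adjusted p = 0.112). Erg passed as lower in 1 of the 15 alternative settings that gave it a value.

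Dll4, a Notch ligand of arterial and sprouting endothelium, read 2.35, 2.03 and 1.79 CPM in vehicle livers and 1.303, 1.303 and 0.860 CPM in Rk2 livers. The treated livers were all lower (edgeR log2 fold change -0.81, SE 0.26, adjusted p = 0.0419). Its counts were low, at 14 to 52 per library, and the call was lost when any single liver was left out, with adjusted p-values up to 0.121. Of 10 other tested genes of the Notch pathway, 5 were lower, none was higher and 5 did not pass (median -0.58), beside 23.7% lower and 20.3% higher over all genes. The ligand Jag1 fell from 15.1 ± 1.2 to 4.51 ± 1.0 CPM (-1.73, adjusted p = 0.00075), the nuclear effector Rbpj from 23.7 ± 1.5 to 11.5 ± 0.45 CPM (-1.04, adjusted p = 0.000609), and the target Hey1 from 1.35 ± 0.48 to 0.241 ± 0.028 CPM (-2.44, adjusted p = 0.00325). Other tested targets did not pass, with Heyl at 0.76 (adjusted p = 0.144), Hes1 at 0.17 (adjusted p = 0.692) and Nrarp at -0.31 (adjusted p = 0.246).

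Across the pan-endothelial genes, 3 of 23 were higher with Rk2 (Kdr, Tek and Ptprb), 9 were lower (Flt1, Pecam1, Cdh5, Egfl7, Esam, Plvap, Calcrl, Nos3 and Dll4) and 11 did not pass, with a median log2 fold change of -0.11. Over all genes 20.3% were called higher and 23.7% lower. The groups did not overlap for 4 of the 23 that were higher and 10 that were lower, beside 27.1% and 30.3% of all genes.

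The 6 angiocrine factors were split, with 2 higher (Bmp2 and Wnt2), 2 lower (Angpt2 and Rspo3) and 2 that did not pass (Bmp6 and Wnt9b). These counts stand beside 20.3% higher and 23.7% lower over all genes. Rspo3, which amplifies Wnt signals from central vein endothelium and some stellate cells (chr10:29452416-29535867, minus strand), read 7.61, 6.40 and 7.49 CPM in vehicle livers and 2.31, 2.93 and 2.03 CPM in Rk2 livers. All treated livers were lower, with a log2 fold change of -1.55 (SE 0.19, edgeR adjusted p = 0.0012; -0.99 in FPKM with a pseudocount of 1). Wnt2, a Wnt ligand of sinusoidal cells, read 0.991, 1.13 and 0.638 CPM in vehicle livers and 2.06, 3.405 and 1.72 CPM in Rk2 livers. Here the treated livers were all higher (edgeR log2 fold change 1.40, SE 0.36, adjusted p = 0.0184), on 16 to 115 counts per library. Wnt2 lost the call without I/R replicate 3 (adjusted p = 0.0619) and without I/R+Rk2 replicate 2 (1.04, adjusted p = 0.0674), and on log2(FPKM + 1) without a filter the difference was 0.46 (limma adjusted p = 0.0584).

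Wnt9b, the central vein Wnt ligand, read 0.730, 1.13 and 0.598 CPM in vehicle livers and 0.715, 0.829 and 1.04 CPM in Rk2 livers, which overlapped (edgeR log2 fold change 0.05, 95% interval -0.77 to 0.87, adjusted p = 0.917). It was the least abundant of the 38 members per length. The ratio of Rspo3 to Wnt2 in FPKM was 5.24 to 8.76 in vehicle livers and 0.628 to 1.04 in Rk2 livers. Of 11 Wnt target genes of the liver, 1 was higher (Cyp1a2, 0.68, edgeR adjusted p = 0.0221), 1 was lower (Slc1a2, -0.60, adjusted p = 0.025) and 9 did not pass, among them Glul (-0.40, adjusted p = 0.139) and Axin2 (0.50, adjusted p = 0.324). Among 11 Wnt receptors and co-receptors, Lrp5 was higher (0.72, adjusted p = 0.00667), Lrp6 was lower (-0.50, adjusted p = 0.0261) and 9 did not pass. For the target and the receptor list, the shares over all genes were 20.3% higher and 23.7% lower.

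**Figure D3:**
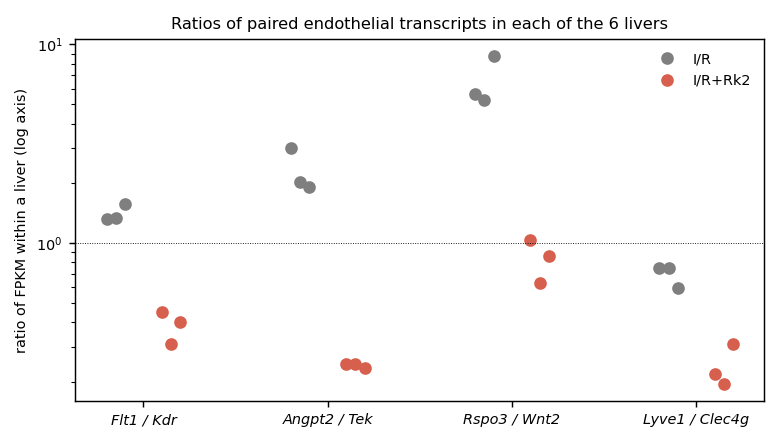
Ratio of the FPKM of 2 endothelial transcripts within each liver (y axis, log scale) for 4 pairs (x axis), with vehicle (I/R) livers in grey and Rk2 (I/R+Rk2) livers in red; each point is 1 liver and the dotted line marks equal levels. For each pair the 3 vehicle livers lie above the 3 treated livers, from 1.32 to 1.58 against 0.311 to 0.448 for Flt1 to Kdr and from 0.598 to 0.752 against 0.195 to 0.312 for Lyve1 to Clec4g.

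Of the BMP ligands, Bmp2 passed as higher and Bmp6 did not pass. Bmp2 read 10.8, 9.33 and 8.77 CPM in vehicle livers and 12.3, 17.2 and 12.1 CPM in Rk2 livers. The groups did not overlap (edgeR log2 fold change 0.53, SE 0.17, adjusted p = 0.0419), with replicate 2 the highest of the treated livers. Without that liver the difference was 0.34 (adjusted p = 0.113), and the call was also lost without any 1 of the 3 vehicle livers. It was kept in 8 of 17 alternative settings, and the difference was 0.26 on log2(FPKM + 1). Bmp6 read 3.28, 2.81 and 3.71 CPM in vehicle livers and 2.14, 2.43 and 2.03 CPM in Rk2 livers. It was lower in every treated liver but did not pass (edgeR log2 fold change -0.56, 95% interval -1.03 to -0.09, adjusted p = 0.0558). Bmp6 passed as lower in 3 of 17 alternative settings. It shares 224 exonic bases with Txndc5 on the opposite strand, which read 124 ± 43.4 CPM in vehicle livers.

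Of 9 target genes of BMP signals, 2 were higher, 1 was lower and 6 did not pass, beside 20.3% higher and 23.7% lower over all genes. Hamp, the hepcidin gene, read 490, 410 and 404 CPM in vehicle livers and 628, 449 and 404 CPM in Rk2 livers, with overlap (edgeR log2 fold change 0.18, adjusted p = 0.427). Its paralog Hamp2, whose reads may be shared with Hamp, went from 54.9 ± 9.9 to 92.6 ± 9.0 CPM (0.76, adjusted p = 0.006). Id2 rose (0.58, adjusted p = 0.0028) and Id3 fell (-0.47, adjusted p = 0.0456). Among 10 tested BMP receptors and signal carriers 2 were higher and 3 were lower, led by Hfe2, the hemojuvelin co-receptor, which went from 29.5 ± 6.7 to 87.2 ± 12.3 CPM (1.56, adjusted p = 0.00111).

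Endothelial genes outside the 38 also moved in both directions. Of 24 other endothelial genes, 4 were higher and 11 were lower (median log2 fold change -0.54), beside 20.3% higher and 23.7% lower over all genes. Podxl, a sialomucin of the luminal surface, fell from 16.7 ± 0.58 to 6.80 ± 0.97 CPM (-1.29, edgeR adjusted p = 0.000753), and Rasip1, a regulator of vessel lumens, from 17.9 ± 2.4 to 5.20 ± 1.3 CPM (-1.77, adjusted p = 0.00105). Lyl1, a transcription factor shared with blood cells, also fell (-2.13, adjusted p = 0.00604). Nr2f2, the venous identity factor COUP-TFII, rose from 9.60 ± 1.3 to 17.0 ± 1.0 CPM (0.83, adjusted p = 0.00316). Of 9 other sinusoidal genes, 1 was higher (Ushbp1, 0.73, adjusted p = 0.0468), 1 was lower (Aass, -0.85, adjusted p = 0.00267) and 7 did not pass, among them Sema6a (-0.65, adjusted p = 0.0609) and Tspan7 (-0.27, adjusted p = 0.104). Aass encodes an enzyme of lysine breakdown that hepatocytes also make, and per length it read 114 ± 10.2 FPKM in vehicle livers, where Fcgr2b, the next of its list, read 15.7 ± 2.1 FPKM.

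Genes that activated endothelium expresses fell in 10 of 13 cases and rose in none, with a median log2 fold change of -1.18. Over all genes tested 23.7% were called lower and 20.3% higher. Vcam1, which holds rolling leukocytes, went from 39.6 ± 3.3 to 14.3 ± 0.57 CPM (-1.47, edgeR adjusted p = 0.00024), and Icam1 from 54.9 ± 1.8 to 25.9 ± 3.8 CPM (-1.09, adjusted p = 0.000834). The selectin Sele went from 16.3 ± 1.2 to 7.18 ± 0.85 CPM (-1.18, adjusted p = 0.000918), and Procr, the endothelial protein C receptor, from 11.5 ± 0.73 to 1.40 ± 0.38 CPM (-3.02, adjusted p = 0.00024). Icam1 and Procr are also made outside the endothelium, and the endothelial share of the RNA of this list was not tested. The plot of the lists sets these genes beside the members.

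**Figure D4:**
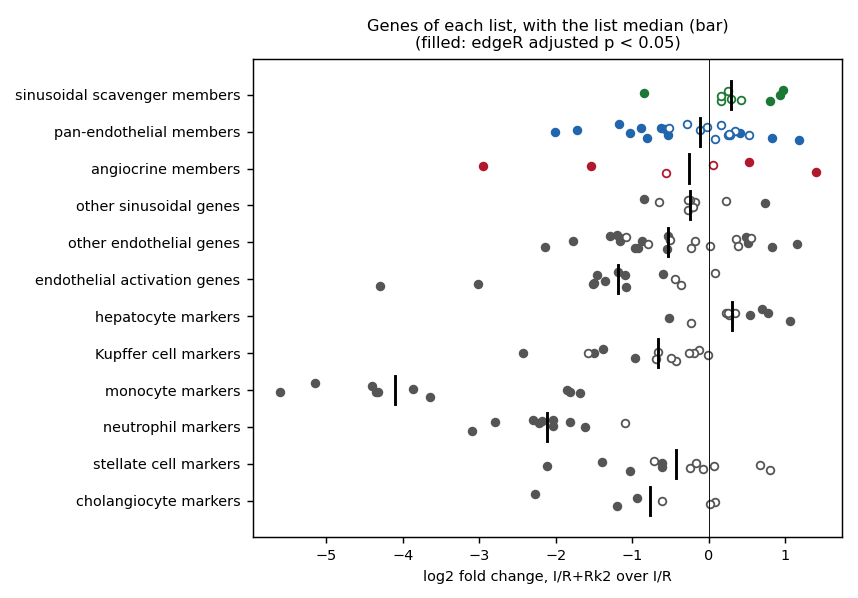
Log2 fold change (x axis, I/R+Rk2 over I/R, n = 3 livers each) of every tested gene of 12 lists (y axis), coloured for the 3 groups of members and grey for the others; filled points have an edgeR adjusted p below 0.05 and black bars are list medians. The medians of the members lie between -0.26 and 0.30, those of the endothelial activation, neutrophil and monocyte lists at -1.18, -2.11 and -4.10.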

How the data were processed

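Whole-liver RNA of 6 mice was sequenced, from 250 ng per liver with an MGI library kit. The authors deposited gene-level counts, as whole numbers, and FPKM values for the same 6 livers. The submitters' processing notes name FastQC 0.11.5, HISAT2 2.2.1 and StringTie 1.3.3 and the build mm10 (GRCm38), and the annotation and the strand setting are not given in the sources used here. Counts and FPKM departed from each other for some members, so both were compared.

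Groups and replicate numbers came from the sample titles. For the test, edgeR 4.0.16 was run in R 4.3.3 on the counts (filterByExpr, TMM scaling, quasi-likelihood test without covariates on all 6 livers). Log2 fold changes set I/R+Rk2 livers over I/R livers, p-values were adjusted by Benjamini-Hochberg over 12411 genes, and the threshold was 0.05. Standard errors and 95% intervals come from the F statistic. Libraries held 16809613 to 35618074 counts, and 3 counts stand for 0.0888 to 0.184 CPM. Nothing in the labels beyond separate titles says how the livers of a group differ, so p-values measure the spread between these livers. Pairs of libraries within a group differed by a chi-square of 31.4 to 74.8 per degree of freedom, and each was counted as 1 replicate. Gene positions and transcript lengths came from GENCODE M21 and promoter windows from RefSeq, both of build GRCm38.

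The members and the other gene lists were chosen with earlier results of these data known. Per-liver values are given for members past the threshold and, of the rest, the 3 with the highest mean CPM in each role, with group means for the others. From each other list at most the 4 genes with the smallest p were named, as were ligands or receptors that bind a described member. Vegfa, Vegfb, Adm, Hamp, Axin2, Clec4f, Heyl, Hes1, Nrarp, Col1a1, Col3a1, Fcgr2b, the neighbours that share exon positions (Agpat2, Atg9b, Gm15587, Fpgs, Vps25, Txndc5, Nt5dc2, Gm16268, Zbtb39, Gm48159, Gm14207 and Gm16553) and the ratios were named outside this rule, after values were seen.

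Alternatives were relative log expression, upper-quartile and library-size scaling, no filter, at least 10 counts in every library, DESeq2 1.42.0, a replicate block, leaving out each liver, limma 3.58.1 on log2(FPKM + 1) and log2(FPKM + 0.1) for genes with a mean FPKM of at least 1 and on log2(FPKM + 1) without a filter, and removal of the trend with transcript length (12210 of the tested genes had a length). The edgeR test, and limma on CPM rather than FPKM, were also run on simulated counts with known changes.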

Additional observations from a re-analysis of the deposited data

How the results depend on the processing

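Over 17 alternatives the 38 members gave 636 log2 fold changes, of which 549 kept direction and side of the threshold, 41 lost the call, 16 gained it and 30 changed sign. None of the 334 values of the 20 members past the threshold changed sign, and 13 of these members passed in every alternative that gave a value. Adding the replicate block called 4 sinusoidal, 10 pan-endothelial and 3 angiocrine genes, against 4, 12 and 4 without it, and Tek, Dll4 and Bmp2 no longer passed. Livers with the same number did not deviate together (correlations of -0.0559, 0.00522 and -0.0579), so the numbers were not taken as pairs.

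Of the angiocrine factors 2 passed on log2(FPKM + 1) and on log2(FPKM + 0.1) for genes averaging 1 FPKM or more, where Wnt2 and Wnt9b were not tested, and 2 to 4 when a liver was left out, with 2 when either I/R replicate 3 or I/R+Rk2 replicate 2 was absent. The median of the 4 tested was -0.68 and -1.13 in those FPKM fits. With the length trend removed 7 sinusoidal genes passed and their median was 0.60. With library size alone, which shifted the median of all genes to -0.17, the medians of the sinusoidal, pan-endothelial and angiocrine genes were 0.14, -0.26 and -0.41. The pan-endothelial median was -0.20 on log2(FPKM + 1) without a filter and -0.22 to -0.052 when a liver was left out, the lowest without I/R+Rk2 replicate 1.

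The sign changes were all in members that did not pass. With library size alone they were Stab1 (-0.00427), Gpr182 (-0.00428), Ramp2 (-0.0155), Klf4 (-0.0743) and Wnt9b (-0.103), with upper-quartile scaling Klf2 (0.0339), and with the length trend removed Tie1 (0.0150) and Ramp2 (-0.0190). On log2(FPKM + 1), with and without the filter, they were Stab2 (-0.300), Gpr182 (-0.00118), Eng (-0.00841) and Klf4 (-0.00973), and without it also Wnt9b (-0.0175), and on log2(FPKM + 0.1) Stab2 (-0.343), Eng (-0.00851) and Klf4 (-0.00409). Leaving out a liver gave -0.11 to 0.073 for Klf2, -0.14 to 0.37 for Wnt9b, -0.0041 to 0.43 for Ramp2, -0.071 to 0.20 for Klf4 and -0.014 to 0.38 for Gpr182. The causes were not tested. With 3 livers a group and 14 to 52 counts for genes such as Dll4, smaller differences could not be resolved at this depth.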

Other observations

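Of 4 lymphatic endothelial markers, Pdpn fell from 3.62 ± 0.53 to 1.32 ± 0.99 CPM (edgeR log2 fold change -1.52, adjusted p = 0.035), while Reln (-0.24, adjusted p = 0.0693), Ccl21a (0.45, adjusted p = 0.362) and Mmrn1 (-0.16, adjusted p = 0.794) did not pass. Reln is also in the list of stellate cell markers. Of 5 tested arterial markers, the connexin gene Gja4 fell from 9.68 ± 0.49 to 5.80 ± 1.4 CPM (-0.73, adjusted p = 0.0178) and 4 did not pass, among them Efnb2 (-0.33, adjusted p = 0.25). Over all genes tested, 23.7% were called lower and 20.3% higher. Of 12 stellate cell markers 5 were lower, none was higher and 7 did not pass. The smallest p-values were those of Hgf (-2.11, adjusted p = 0.000629) and Pdgfrb, the receptor through which endothelial PDGF acts (-1.39, adjusted p = 0.002). Col1a1 (0.80, adjusted p = 0.0957) and Col3a1 (0.67, adjusted p = 0.183) had positive differences that did not pass. In both, I/R+Rk2 replicate 3 stood far above the other livers. Col1a1 read 11.1, 12.2 and 27.2 CPM in Rk2 livers, against 8.89 to 11.0 CPM in vehicle livers. For Col3a1 the Rk2 livers read 20.6, 27.9 and 59.3 CPM and the vehicle livers 18.3 to 26.3 CPM. Of 6 cholangiocyte markers 3 were lower, with Spp1 falling from 162 ± 29.7 to 70.6 ± 14.1 CPM (-1.20, adjusted p = 0.00296).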
